A study of Homo sapiens with 4 samples.

Results

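The human major histocompatibility complex (MHC) was followed in H3K27ac HiChIP libraries of IMR90 cells, a line of primary human lung fibroblasts. In HiChIP, cut DNA ends that touch in crosslinked nuclei are ligated to each other, and the products that carry a chosen chromatin mark are pulled down. The mark was H3K27ac, the histone acetylation found at promoters and enhancers in use. The members are the listed interactions with at least 1 anchor overlapping chromosome 6 from 29.6 to 33.1 Mb (hg19), a stretch chosen for its class I, class III and class II genes and not for its values. They number 309 interactions in the shMETTL14 library, 234 in shMETTL3, 231 in senescent shcontrol and 601 in control, 1375 of the 1330388 interactions in the 4 libraries. They hold 1303 paired-end tags (PETs, the read pairs that join 2 anchors) in shMETTL14, 1040 in shMETTL3, 840 in senescent shcontrol and 1752 in control.

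Each group is a single library. The senescent groups carried a hairpin against METTL14 (shMETTL14), a hairpin against METTL3 (shMETTL3) or a control hairpin (shcontrol), and all were labelled senescent. The control group is labelled WT with control as its treatment, and its labels name no hairpin, so it may differ from senescent shcontrol in that as well. Senescence, in which cells stop dividing for good, was induced by inducible expression of a fusion between the estrogen receptor and H-RASG12V, an active form of the RAS oncoprotein, per the labels' protocols. METTL3 is the catalytic subunit and METTL14 the partner subunit of the complex that writes N6-methyladenosine on RNA. Their depletion was not measured in these files. One protocol text has METTL4 in place of METTL14; the genotype label was followed. Total PETs were 936492 in shMETTL14, 623930 in shMETTL3, 552029 in senescent shcontrol and 998378 in control. With 1 library a group there is no replicate spread and no test: every difference below is between libraries, and each interval is a 95% interval that covers counting error only. A PET count depends on how acetylated the anchors are and on how often they touch, and the files do not separate these.

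The MHC is a dense stretch of immune genes. Its class I genes, among them HLA-B and HLA-C, are expressed by nearly all nucleated cells and present peptides made inside the cell to CD8 T cells. Its class II genes (HLA-DR, HLA-DQ and HLA-DP) present peptides taken up from outside to CD4 T cells, mostly on professional antigen-presenting cells, and fibroblasts express them chiefly after interferon gamma. The class III genes between them are mixed, with TNF and the lymphotoxins LTA and LTB, complement components such as CFB, and the heat-shock gene HSPA1A. In the RefSeq gene table for GRCh38.p14, 130 protein-coding genes stand from MOG to HLA-DPB1. Between HLA-E and HLA-C in that order lies a run of genes that do not present antigen, among them TUBB (a beta-tubulin), FLOT1 (a membrane scaffold protein), IER3 (an early response gene induced by stress and by NF-kappa-B) and DDR1 (a collagen receptor). Those positions are on another build than the files, so no gene was assigned to an anchor or a bin. Sections are named here by round hg19 positions near the textbook class borders, which were not checked against an hg19 annotation: the class I side from 29.6 to 31.5 Mb, the class III side from 31.5 to 32.4 Mb and the class II side from 32.4 to 33.1 Mb.

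The anchors themselves differed between control and senescent libraries, which bears on every comparison with control. The 3 senescent libraries share 1 anchor set, with 56 anchors over 205.1 kb of the region (5.86% of its length). The control library has its own set, with 83 anchors over 330.0 kb (9.43%). Merging overlapping anchors gave 92 regions, of which 44 held anchors of both sets, 12 anchors of the senescent set only and 36 anchors of the control set only. Just 8 anchors had identical ends in both sets. Ratios to control of the region, its sections and its bins are therefore also given per covered kb, and the comparisons among senescent libraries, which share their anchors, do not need it. Whether a wider anchor set follows from stronger signal was not tested.

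As a whole, the MHC held 1391 PETs for every 1000000 PETs of the library (PPM) in shMETTL14 (interval 1317 to 1469), 1667 in shMETTL3 (1567 to 1771), 1522 in senescent shcontrol (1421 to 1628) and 1755 in control (1674 to 1839). These levels are ordinary for a stretch of this length. Among 723 other windows of 3.5 Mb with at least 400 PETs over the 4 libraries, 325 stood higher in shMETTL14, 235 in shMETTL3, 279 in senescent shcontrol and 233 in control. Per covered kb fewer did: 65 in shMETTL14, 32 in shMETTL3, 48 in senescent shcontrol and 38 in control. In 545 windows the senescent set covered more kb than in the MHC, and in 475 the control set did. Pooled over the region, spans were short and PETs were held in few places. The class I side carried the short spans, and the other sections had longer medians, given below. The median span of a PET, the distance between anchor midpoints, was 33.4 kb in each senescent library and 42.3 kb in control. The value of 33.4 kb is the span of a single interaction listed in every senescent library. It comes from their shared anchor set, and control has other anchors. In the rest of the library it was 75.6 kb in shMETTL14, 69.8 kb in shMETTL3, 82.8 kb in senescent shcontrol and 86.8 kb in control. Of the 723 windows, 10 had a shorter median span in shMETTL14, 21 in shMETTL3, 9 in senescent shcontrol and 9 in control.

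PETs were concentrated in 1 place on the class I side in all 4 libraries. The 100 kb bin from 30.7 to 30.8 Mb held 907 PETs in shMETTL14 (969 PPM), 779 in shMETTL3 (1249 PPM), 567 in senescent shcontrol (1027 PPM) and 874 in control (875 PPM), counting each PET with an end in the bin once. That is 69.6% of the region's PETs in shMETTL14 (interval 67.0 to 72.1), 74.9% in shMETTL3 (72.2 to 77.5), 67.5% in senescent shcontrol (64.2 to 70.7) and 49.9% in control (47.5 to 52.3). Genome-wide, 75 of 17789 bins with PETs stood higher in shMETTL14, 44 of 17330 in shMETTL3, 74 of 17217 in senescent shcontrol and 83 of 17778 in control. The bin is also the most covered of the region, with 51.3 kb in the senescent set and 58.1 kb in the control set. Per covered kb it held 18.9 PPM in shMETTL14, 24.4 in shMETTL3, 20.03 in senescent shcontrol and 15.1 in control.

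**Figure D1:**
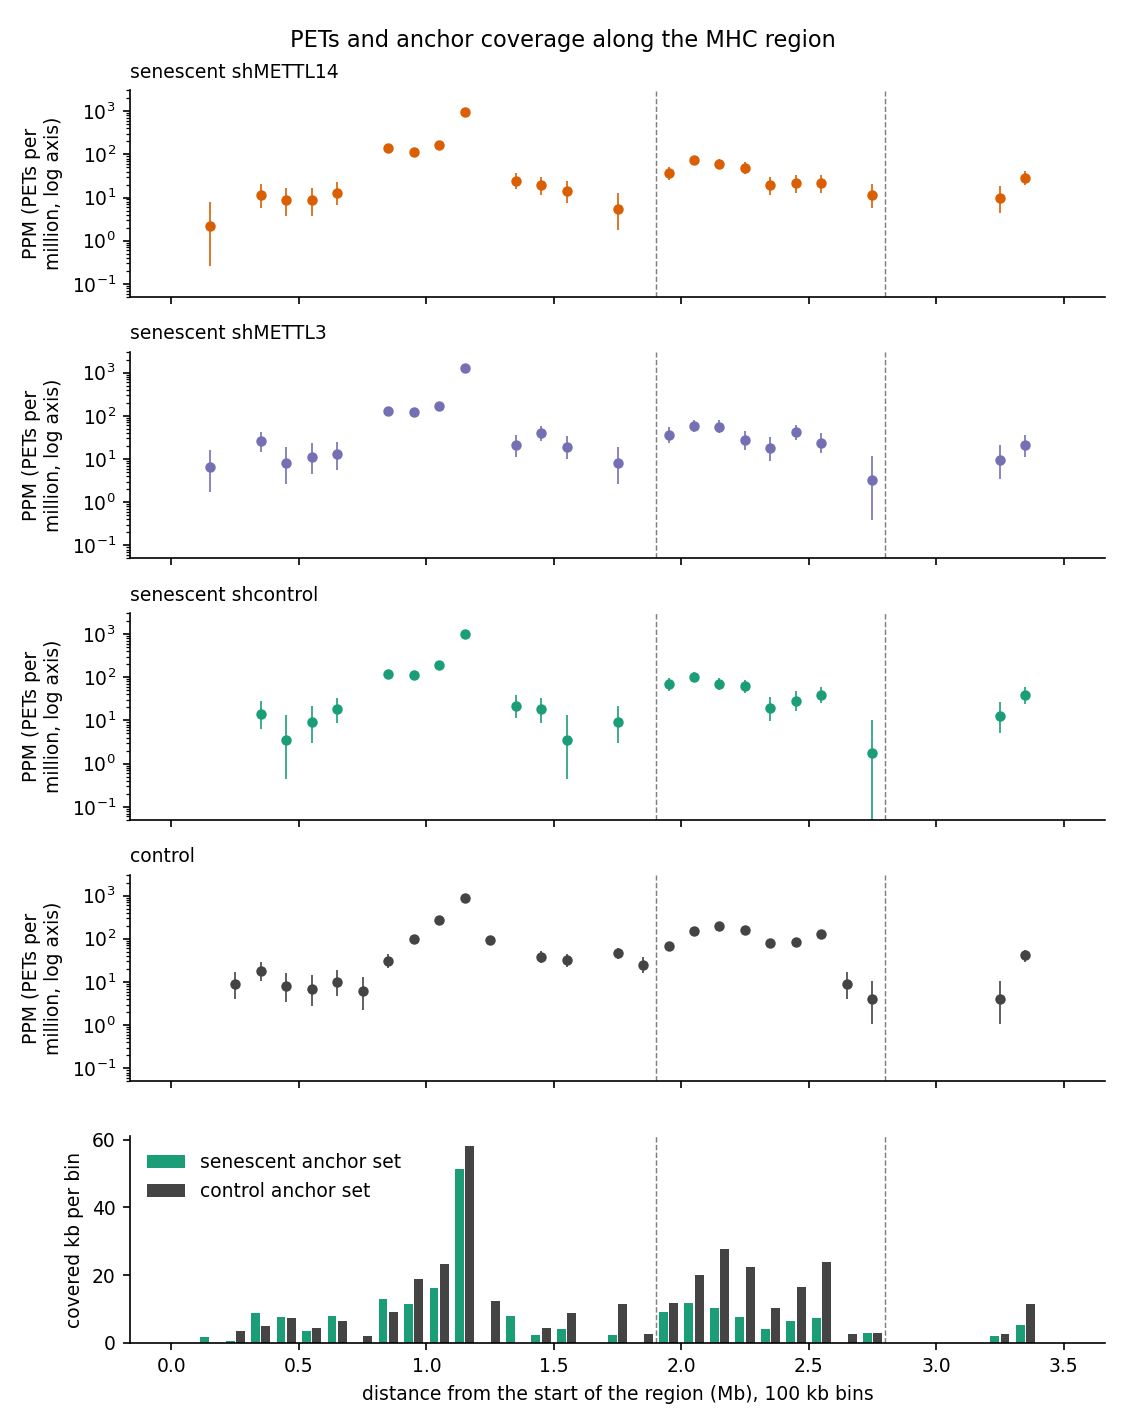
PPM (log axis) in each 100 kb bin of the MHC region, by library, with 95% counting intervals, and the kb covered by each anchor set (bottom). Dashed lines mark the section borders; bins with no PETs are not drawn. Every library peaks 1.1 to 1.2 Mb into the region, at 969 PPM in shMETTL14, 1249 in shMETTL3, 1027 in senescent shcontrol and 875 in control, and none has an anchor from 2.8 to 3.2 Mb.

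Around that peak the profile fell off unevenly on its 2 sides. The neighbouring bin from 30.6 to 30.7 Mb held 163 PPM in shMETTL14, 165 in shMETTL3, 196 in senescent shcontrol and 271 in control. The bins from 30.4 to 30.5 Mb and from 30.5 to 30.6 Mb held 143 and 112 PPM in shMETTL14, 131 and 123 in shMETTL3, 118 and 111 in senescent shcontrol, and 31.1 and 100.2 in control. Beyond the peak, from 30.8 to 30.9 Mb, the senescent set has no anchor, while control held 92 PETs there (92.1 PPM). In the 8 bins from 29.6 to 30.4 Mb, no library passed 25.6 PPM in any bin. A second, lower plateau lay on the class III side from 31.5 to 32.2 Mb. Its highest bin was 31.6 to 31.7 Mb in shMETTL14 (72.6 PPM), shMETTL3 (59.3) and senescent shcontrol (103), and 31.7 to 31.8 Mb in control (194).

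Of the 35 bins, 28 had an anchor in at least 1 set, 4 of them in the control set only and 2 in the senescent set only. The 7 bins without any anchor were 29.6 to 29.7, 31.2 to 31.3, 4 bins in a row from 32.4 to 32.8, and 33.0 to 33.1 Mb. A bin without an anchor has no value, which is not a count of 0. The sources used here do not give how reads from near-identical or highly polymorphic HLA genes were placed. In the section named for class II, anchors of either set covered only the bins from 32.8 to 33.0 Mb, 7.33 kb in the senescent set and 14.015 kb in the control set. Those bins held 31 PETs in shMETTL14, 17 in shMETTL3, 27 in senescent shcontrol and 44 in control, which is 33.1 PPM in shMETTL14, 27.2 in shMETTL3, 48.9 in senescent shcontrol and 44.1 in control. Their PETs reached far, with median spans of 421 kb in shMETTL14, 431 kb in shMETTL3, 773 kb in senescent shcontrol and 310 kb in control.

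The peak bin resolves into a small cluster of 5 merged anchors present in both sets, which were chosen for close description after their values were seen. Counting from 1, they lie on chromosome 6 from 30707120 to 30724011 (anchor 1), 30724832 to 30729958 (anchor 2), 30730698 to 30741141 (anchor 3), 30743360 to 30755706 (anchor 4) and 30779658 to 30791437 (anchor 5). Within the region these were the 5 anchors with most PETs over the 4 libraries. Anchor 1 led in each of them, with 438 PETs in shMETTL14 (468 PPM), 399 in shMETTL3 (639 PPM), 269 in senescent shcontrol (487 PPM) and 425 in control (426 PPM). Of all PETs with an end in the bin, 78.3% in shMETTL14, 81.4% in shMETTL3, 75.5% in senescent shcontrol and 70.3% in control had both ends there.

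Interactions within this cluster made up the top of the list in the senescent libraries. The strongest single interaction in shMETTL14 joined anchors 3 and 4 with 146 PETs over 13.6 kb. In shMETTL3 it joined anchors 1 and 3 with 117 PETs over 19.8 kb, in senescent shcontrol anchors 1 and 2 with 72 PETs over 11.4 kb, and in control the same pair of merged anchors with 62 PETs over 8.01 kb. The 5 strongest interactions held 41.4% of the region's PETs in shMETTL14, 46.7% in shMETTL3, 36.3% in senescent shcontrol and 13.8% in control. In the senescent libraries all 5 lay inside the cluster. In control, 4 of the 5 did, and the second strongest (47 PETs over 32.5 kb) joined 2 anchors on its flank, from 30648639 to 30660533 and from 30683665 to 30690478. The control set divides anchors 1, 3 and 5 into 2 anchors each, so its PETs are spread over more interactions, and pairs of merged anchors were compared instead.

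Senescent shcontrol against control asks how contacts differ once the cells are senescent. The cluster drew a larger share of PETs in senescent shcontrol, and the rest of the region a smaller share. Per covered kb the rest held about the same PPM in both libraries, while the library as a whole stood higher in senescent shcontrol. The senescent set covers 232.2 Mb of the genome and the control set 318.3 Mb. Genome-wide, the median log2 ratio per covered kb was 0.40 over bins covered by both sets, against 0.20 in the region. Summed over the 10 pairs among the 5 anchors, senescent shcontrol held 428 PETs (775 PPM) and control 444 (445 PPM), a ratio of 1.74 (1.52 to 2.00). Counting also the 75 control PETs that join 2 control anchors inside 1 merged anchor, the ratio was 1.49 (1.31 to 1.70). The bin holds 2 further anchors in the control set only, from 30760475 to 30762959 and from 30794351 to 30798879, with 95 control PETs inside the bin. With these counted as well, all PETs with both ends in the bin stood at 428 in senescent shcontrol and 614 in control, a ratio of 1.26 (1.11 to 1.43). The 5 anchors cover 51.3 kb in the senescent set and 51.04 kb in the control set. PETs in the region with no end in the peak bin stood at 273 in senescent shcontrol (495 PPM) and 878 in control (879 PPM), a ratio of 0.562 (0.489 to 0.645). Anchors outside the bin cover 153.8 kb in the senescent set and 271.9 kb in the control set, and per covered kb this ratio was 0.994 (0.865 to 1.14). Over the whole region the ratio was 0.867 (0.798 to 0.942), where the rest of chromosome 6 stood at 1.05 (1.04 to 1.07), and 246 of 661 windows of 3.5 Mb had a lower ratio. Per covered kb the region's ratio was 1.40 (1.28 to 1.52), on a scale where the library as a whole also stood above 1. The direction turned with only interactions of at least 4 PETs and a false discovery rate of at most 0.01, at 1.35 (1.20 to 1.51).

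Nearly every pair in the cluster was higher in senescent shcontrol. Of its 10 pairs, 9 had a ratio above 1, and 8 had an interval wholly above 1. A pair was called when its PPM differed at least 1.5-fold on the log2 scale with a pseudocount of 1 PPM, its interval excluded 1 and both libraries together held at least 50 PETs. By that rule 7 of the 8 pairs with enough PETs were called higher and 0 lower, where 28.0% of 1425 such pairs genome-wide were called higher and 23.6% lower. Here and below, the pairs share the same 5 anchors, which were chosen after their values were seen. Their calls are therefore not separate results. The pair of anchors 3 and 4 showed the highest ratio, with 68 PETs (123 PPM) in senescent shcontrol and 50 (50.1 PPM) in control, a ratio of 2.46 (1.68 to 3.62). Anchors 1 and 3 were joined by 61 PETs (110.5 PPM) in senescent shcontrol and 57 (57.1 PPM) in control, a ratio of 1.94 (1.33 to 2.83). The pair of anchors 1 and 5, the farthest apart at 70.0 kb, stood at 52.5 PPM in senescent shcontrol and 46.1 in control, a ratio of 1.14 (0.691 to 1.85). Across the library, PETs from 5 to 20 kb were more frequent in senescent shcontrol, at a ratio of 1.15 (1.14 to 1.15). Those from 20 to 50 kb were less frequent, at 0.963 (0.956 to 0.970). With only interactions of at least 20 kb, in the cluster and in the library totals, the cluster's ratio was 1.46 (1.19 to 1.77). That limit drops 245 of the 428 PETs of the cluster in senescent shcontrol. They are the interactions of anchors 1 and 2, 2 and 3, 3 and 4, and 1 and 3, the last at 19.8 kb. Control anchors 1, 3 and 5 are divided, so the limit does not cut the same contacts in both sets.

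**Figure D2:**
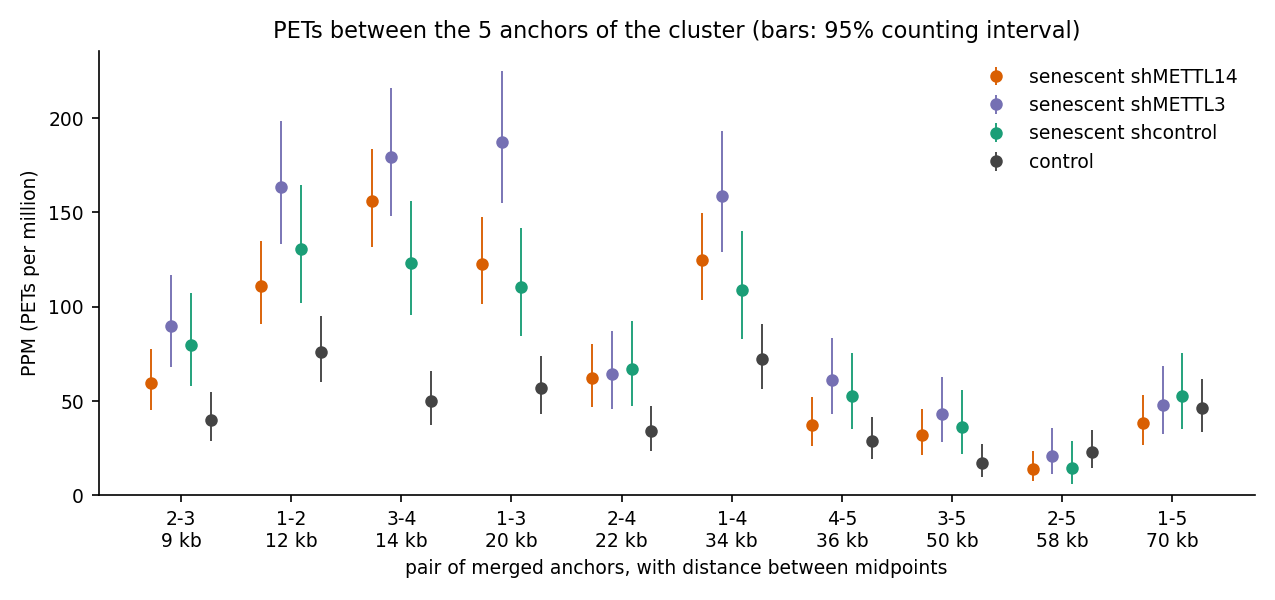
PPM between each pair of the 5 anchors of the cluster, ordered by the distance between anchor midpoints, with 95% counting intervals. Senescent shcontrol lies above control in all pairs except anchors 2 and 5, and shMETTL14 lies below shMETTL3 in all 10.

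By single anchor, the middle of the cluster was higher in senescent shcontrol. An anchor on its flank was lower, but not per covered kb. Anchor 4 held 236 PETs (428 PPM) in senescent shcontrol and 240 (240.4 PPM) in control, a ratio of 1.78 (1.48 to 2.14). Anchor 3 stood at 1.69 (1.40 to 2.04) and anchor 2 at 1.58 (1.28 to 1.95). These 3 were the anchors called higher among 16 tested in the region, and 2 were called lower. Genome-wide, 24.5% of 15109 anchors were called higher and 22.7% lower. As shares of the 16, both counts lie below the genome-wide ones. The log2 ratios of anchors 4, 3 and 2, at 0.83, 0.76 and 0.66, became 0.55, 0.55 and 0.72 per covered kb. On that scale the genome-wide median was 0.40 for bins and is not given for anchors. Anchor 1 (ratio 1.14, 0.979 to 1.34) and anchor 5 (0.932, 0.726 to 1.19) were not called. On the flank, the anchor from 30683665 to 30690478 was called lower, with 27 PETs (48.9 PPM) in senescent shcontrol and 128 (128 PPM) in control. The senescent set covers 2.48 kb of it and the control set 6.81 kb, and its log2 ratio of -1.37 became 0.09 per covered kb. The other anchor called lower lies on the class III side from 31701042 to 31709396 and was singled out after its values were seen. It held 14 PETs (25.4 PPM) in senescent shcontrol and 75 (75.1 PPM) in control, a ratio of 0.338 (0.176 to 0.602). With 6.07 kb covered in the senescent set and 8.36 kb in the control set, its log2 ratio of -1.53 stayed below 0 per covered kb, at -1.07. The 8 anchors with identical ends, none of them in the cluster, held 85 PETs in senescent shcontrol against 115 in control (ratio 1.34, 0.998 to 1.78).

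In 100 kb bins, 14 of the region's bins had enough PETs to compare. By the same rule 1 was called higher in senescent shcontrol and 7 lower, where 21.9% of 10319 bins genome-wide were called higher and 31.3% lower. In 1 of the 7, from 30.8 to 30.9 Mb, the senescent set has no anchor, so no PET could be listed there and its call says nothing about contact. Among the 13 bins with an anchor in both sets, 1 was called higher and 6 lower, where 21.9% of 10265 such bins genome-wide were called higher and 31.0% lower. Their median log2 ratio was -0.57, against -0.16 over all such bins. Higher was the bin from 30.4 to 30.5 Mb, with 65 PETs (118 PPM) in senescent shcontrol and 31 (31.1 PPM) in control, a ratio of 3.79 (2.44 to 6.02). The senescent set covers 12.9 kb there and the control set 9.09 kb, and per covered kb the ratio was 2.68 (1.72 to 4.25). One of its anchors is identical in both sets, from 30494200 to 30498134, and held 27 PETs (48.9 PPM) in senescent shcontrol and 16 (16.0 PPM) in control.

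On the class III side, PETs were lower in senescent shcontrol along most of the section. The section held 157 PETs (284 PPM) in senescent shcontrol and 590 (591 PPM) in control, a ratio of 0.481 (0.401 to 0.575). Of its 7 bins tested, 5 were called lower, the run from 31.7 to 32.2 Mb. The bin from 31.7 to 31.8 Mb held 39 PETs in senescent shcontrol against 194 in control (ratio 0.364, 0.251 to 0.515). The bin from 32.1 to 32.2 Mb held 22 in senescent shcontrol against 129 in control (ratio 0.308, 0.187 to 0.487). The senescent set covers less of this section than the control set does, 59.2 against 138.1 kb. Per covered kb the section's ratio was 1.12 (0.936 to 1.34), and of its 7 bins 0 were called in either direction. The median log2 ratio of those bins was 0.05 per covered kb, against 0.40 genome-wide over bins covered by both sets. The remaining bin called lower with an anchor in both sets was 31.3 to 31.4 Mb, with 5 PETs in senescent shcontrol and 47 in control. The senescent set covers 2.45 kb there and the control set 11.6 kb, and per covered kb the ratio was 0.910 (0.282 to 2.28).

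Division by covered length changed which bins stood out. Of 13 bins covered by both sets, 3 were called higher in senescent shcontrol and 0 lower, where 33.9% of 10265 bins genome-wide were called higher and 3.86% lower. The 3 were 30.4 to 30.5 Mb, 30.5 to 30.6 Mb (1.82, 1.30 to 2.53) and 32.9 to 33.0 Mb (2.03, 1.14 to 3.51). The peak bin stood at 1.33 (1.19 to 1.48) on this scale, a log2 ratio of 0.41 beside a genome-wide median of 0.40. Without the division it stood at 1.17 (1.05 to 1.31), where 67 of 205 well-filled bins of the genome (at least 1000 PETs over both libraries) stood higher. The class I side as a whole stood at 1.34 (1.22 to 1.47) per covered kb and at 1.04 (0.949 to 1.15) without it. The class II side stood at 2.12 (1.26 to 3.51) per covered kb and at 1.11 (0.661 to 1.83) without it. It held only 27 PETs in senescent shcontrol and 44 in control.

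**Figure D3:**
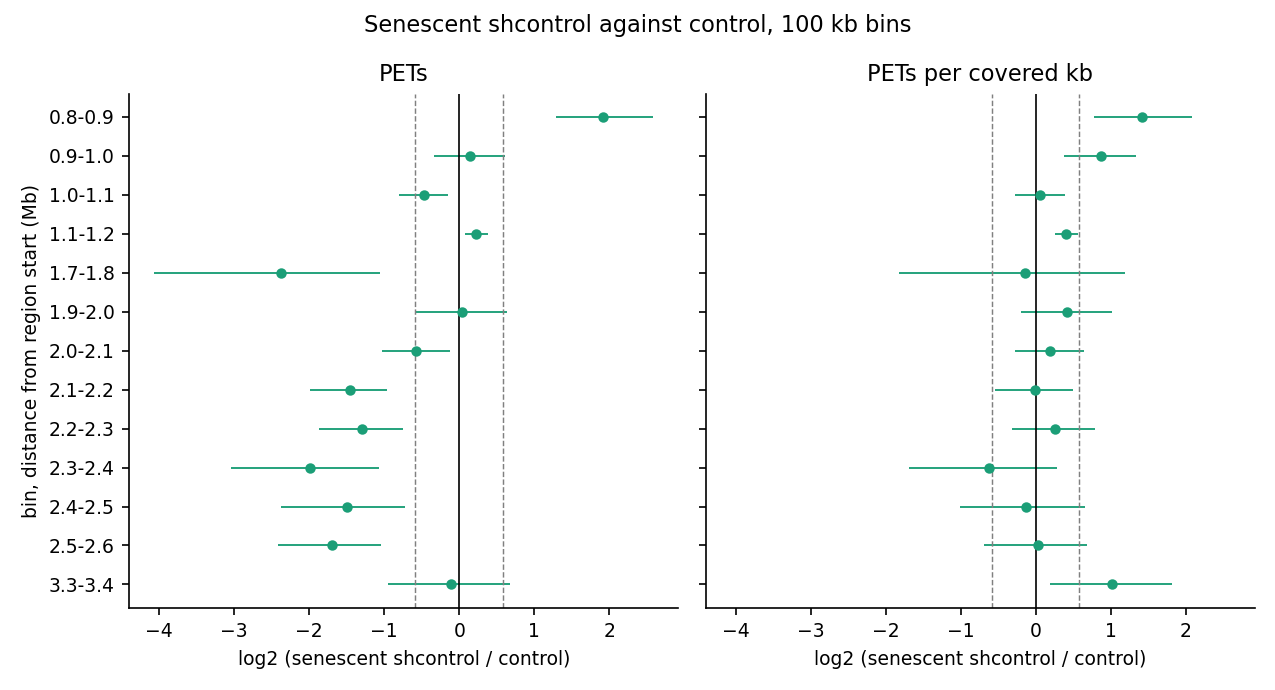
Log2 ratio of senescent shcontrol over control in the 13 bins with at least 50 PETs and an anchor in both sets, as PETs (left) and as PETs per covered kb (right), with 95% counting intervals; dashed lines mark 1.5-fold. The run of low bins from 2.1 to 2.6 Mb on the left, the class III side, lies around 0 on the right. The genome-wide median on the scale of the right panel is 0.40. The bin at 0.8 to 0.9 Mb is high in both (ratios 3.79 and 2.68).

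The same split shows in how the sections pair. Contacts within the class I side made up 83.0% of the region's PETs in shMETTL14, 86.5% in shMETTL3, 79.3% in senescent shcontrol and 64.1% in control. Contacts within the class III side made up 10.2% in shMETTL14, 7.21% in shMETTL3, 12.3% in senescent shcontrol and 26.8% in control. The senescent set covers 138.6 kb of the class I side and 59.2 kb of the class III side, and the control set 177.8 kb and 138.1 kb, so the shares in control are over other anchors. Contacts between the class I and class III sides were few, with 36 PETs in shMETTL14 (38.4 PPM), 31 in shMETTL3 (49.7 PPM), 26 in senescent shcontrol (47.1 PPM) and 68 in control (68.1 PPM). Between the class I and class II sides each library held at most 1 PET.

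**Figure D4:**
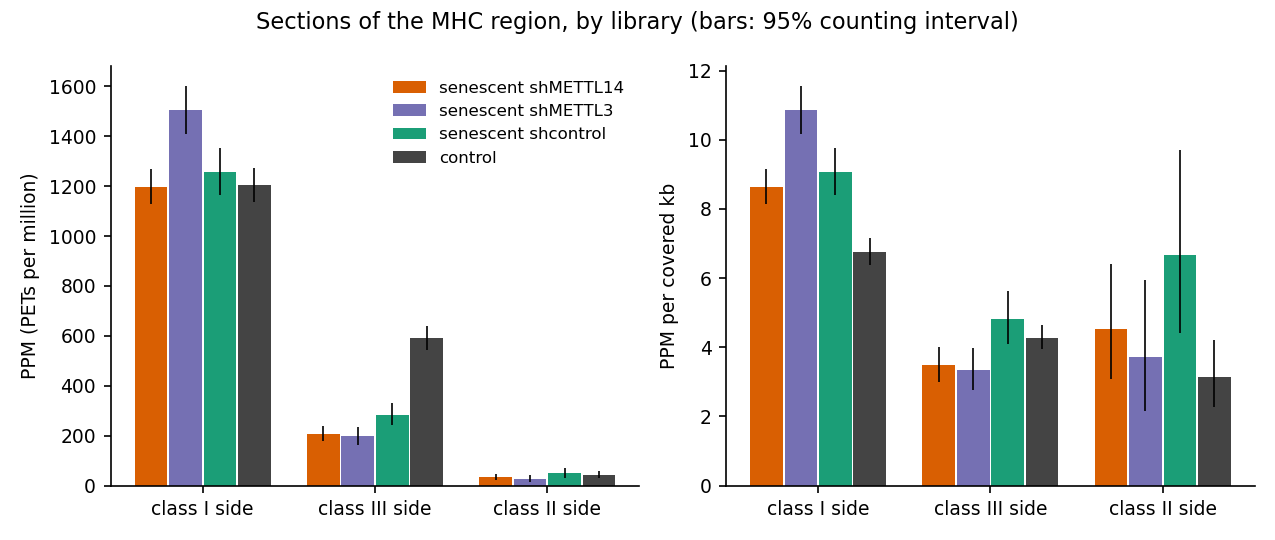
PPM with an end in each section (left) and divided by the kb that the library's anchor set covers there (right), with 95% counting intervals. On the class III side senescent shcontrol holds 284 PPM and control 591, while per covered kb senescent shcontrol stands at 4.81 PPM and control at 4.28.

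shMETTL3 against senescent shcontrol asks what METTL3 knockdown leaves of the senescent pattern. In the MHC, shMETTL3 had a larger share of PETs in the cluster and a smaller share on the class III side. The 10 pairs of the cluster summed to 634 PETs (1016 PPM) in shMETTL3 and 428 (775 PPM) in senescent shcontrol, a ratio of 1.31 (1.16 to 1.49). Of the pairs, 8 had a ratio above 1. Only the pair of anchors 1 and 3 was called higher among 8 tested, where 8.71% of 1344 pairs genome-wide were called higher and 4.39% lower. It held 117 PETs (188 PPM) in shMETTL3 and 61 (110.5 PPM) in senescent shcontrol, a ratio of 1.70 (1.23 to 2.35). Next came anchors 1 and 4 (1.46, 1.05 to 2.05) and anchors 3 and 4 (1.46, 1.07 to 2.00), whose intervals exclude 1 but which stayed under 1.5-fold. Across the library, PETs from 5 to 50 kb stood at a ratio of 1.08 (1.07 to 1.09). The peak bin, at 1.22 (1.09 to 1.36), had 18 of 143 well-filled bins of the genome above it.

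Among single anchors of the region, 0 of 10 tested were called higher and 1 lower in shMETTL3, where 6.52% of 12279 anchors genome-wide were called higher and 6.05% lower. The one called lower, singled out after its values were seen, lies on the class III side from 31630072 to 31635393. It held 40 PETs (42.7 PPM) in shMETTL14, 26 (41.7 PPM) in shMETTL3 and 39 (70.6 PPM) in senescent shcontrol, a ratio of 0.590 (0.345 to 0.994) for shMETTL3. Anchor 3 held 338 PETs (542 PPM) in shMETTL3 and 216 (391 PPM) in senescent shcontrol, a ratio of 1.38 (1.16 to 1.65), and anchor 1 stood at 1.31 (1.12 to 1.54). Anchor 5, at the far end of the cluster, stood at 1.04 (0.793 to 1.37).

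The class III side held 123 PETs (197 PPM) in shMETTL3 and 157 (284 PPM) in senescent shcontrol, a ratio of 0.693 (0.543 to 0.883) on the same anchors. Of the 8 bins of the region with enough PETs, 3 were called lower in shMETTL3 and 0 higher, where 6.01% of 8414 bins genome-wide were called lower and 3.46% higher. All 3 lay on the class III side: 31.5 to 31.6 Mb (23 PETs in shMETTL3 and 38 in senescent shcontrol, ratio 0.536, 0.305 to 0.922), 31.6 to 31.7 Mb (37 in shMETTL3 and 57 in senescent shcontrol, ratio 0.574, 0.369 to 0.884) and 31.8 to 31.9 Mb (17 in shMETTL3 and 35 in senescent shcontrol, ratio 0.430, 0.226 to 0.788). These counts are small: 0 bins were called when 100 PETs were required, and 1 was called at 2-fold. With only spans of at least 20 kb, 2 of 7 bins were called lower and 1 higher. Over the whole region the ratio was 1.10 (0.999 to 1.20), with 97 of 626 windows of 3.5 Mb higher.

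shMETTL14 against senescent shcontrol shares its reference library with the shMETTL3 comparison, so the values of both are given side by side and not as independent results. In the cluster, shMETTL14 was close to senescent shcontrol. The 10 pairs held 710 PETs (758 PPM) in shMETTL14 and 428 (775 PPM) in senescent shcontrol, a ratio of 0.978 (0.866 to 1.11), where shMETTL3 stood at 1.31. Of 9 pairs tested 0 were called, where 7.80% of 1987 pairs genome-wide were called higher and 9.31% lower. The class III side held 193 PETs (206 PPM) in shMETTL14 and 157 (284 PPM) in senescent shcontrol, a ratio of 0.725 (0.584 to 0.9003), beside 0.693 for shMETTL3. Of 8 bins, 1 was called lower and 0 higher, where 4.93% of 9700 bins genome-wide were called lower and 5.23% higher. That was 31.5 to 31.6 Mb, with 35 PETs (37.4 PPM) in shMETTL14 and 38 (68.8 PPM) in senescent shcontrol, a ratio of 0.543 (0.333 to 0.883), and 0 bins were called at 2-fold or with 100 PETs required. With only spans of at least 20 kb, 1 of 8 bins was called lower and 1 higher. All 4 class III bins tested had a ratio below 1, as they had in shMETTL3. Of 14 anchors, 0 were called higher and 2 lower, where 7.66% of 16168 anchors genome-wide were called higher and 6.54% lower. The anchors called lower were the one from 31630072 to 31635393 (ratio 0.605, 0.379 to 0.965) and the flank anchor from 30683665 to 30690478, with 23 PETs in shMETTL14 and 27 in senescent shcontrol (ratio 0.502, 0.275 to 0.910). The region as a whole stood at 0.914 (0.838 to 0.998), with 126 of 660 windows lower, and at 0.961 (0.871 to 1.06) when both libraries were brought to equal depth.

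Between the knockdowns, the cluster held the difference. All 10 pairs were lower in shMETTL14 than in shMETTL3, 4 with an interval wholly below 1, and their sum stood at a ratio of 0.746 (0.669 to 0.832). The rule called 2 of 9 pairs lower and 0 higher, where 10.2% of 2249 pairs genome-wide were called lower and 4.27% higher. Anchors 1 and 3 were joined by 115 PETs (123 PPM) in shMETTL14 and 117 (188 PPM) in shMETTL3, a ratio of 0.655 (0.502 to 0.854). The other pair called was anchors 4 and 5, with 35 PETs in shMETTL14 and 38 in shMETTL3, a ratio of 0.614 (0.376 to 0.998). The 5 anchors of the cluster had ratios from 0.722 to 0.834, and 0 of 13 anchors tested in the region were called, where 6.32% of 16778 anchors genome-wide were called higher and 5.45% lower. On the class III side the ratio was 1.05, with an interval from 0.830 to 1.32. Its bin from 31.8 to 31.9 Mb was the 1 bin of 8 called, with 46 PETs (49.1 PPM) in shMETTL14 and 17 (27.2 PPM) in shMETTL3, a ratio of 1.80 (1.01 to 3.35), and it was not called when both libraries were brought to equal depth. Genome-wide, 6.53% of 9765 bins were called higher and 3.01% lower. Over the region shMETTL14 stood at 0.835 (0.769 to 0.906) of shMETTL3, and 24 of 660 windows had a lower ratio.

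Spans pooled over the region were short in every library. PETs from 5 to 20 kb made up 38.9% of the region in shMETTL14 (36.3 to 41.6), 42.1% in shMETTL3 (39.1 to 45.2), 38.1% in senescent shcontrol (34.8 to 41.5) and 30.5% in control (28.4 to 32.8). In the rest of the library they made up 21.7% in shMETTL14, 22.4% in shMETTL3, 20.8% in senescent shcontrol and 18.1% in control. PETs of 100 kb or more made up 22.9% of the region in shMETTL14 (44.4% elsewhere), 19.8% in shMETTL3 (42.2% elsewhere), 23.2% in senescent shcontrol (45.9% elsewhere) and 29.3% in control (46.8% elsewhere). The class I side was the short-range part, with median spans of 32.2 kb in shMETTL14, 22.0 kb in shMETTL3, 28.7 kb in senescent shcontrol and 33.5 kb in control. On the class III side the median span was 145 kb in shMETTL14, 236 kb in shMETTL3, 145 kb in senescent shcontrol and 80.6 kb in control. The medians in the rest of the library were 75.6 kb in shMETTL14, 69.8 kb in shMETTL3, 82.8 kb in senescent shcontrol and 86.8 kb in control. The class III side was thus longer than the rest in the senescent libraries, but not in control.

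**Figure D5:**
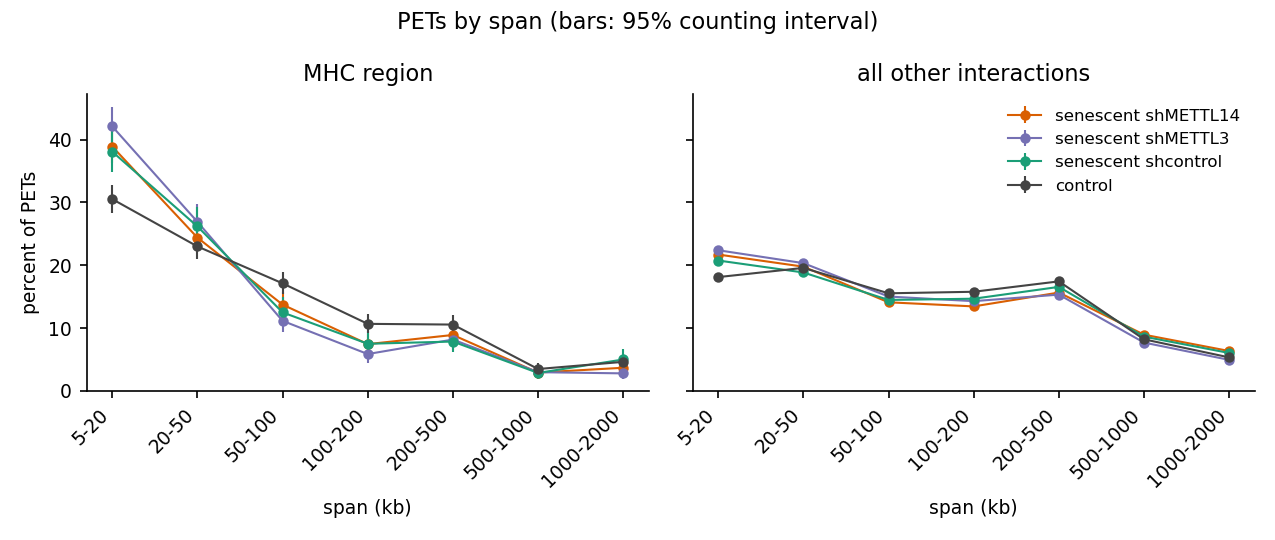
Percent of PETs by span in the MHC region (left) and in all other interactions (right), by library, with 95% counting intervals. In the region the 5 to 20 kb class is the largest in every library, at 38.9% in shMETTL14, 42.1% in shMETTL3, 38.1% in senescent shcontrol and 30.5% in control.

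The main partner of the peak bin was itself, and next came its neighbour from 30.6 to 30.7 Mb, with 86 PETs in shMETTL14, 61 in shMETTL3, 69 in senescent shcontrol and 121 in control. After it came 30.5 to 30.6 Mb, with 32 PETs in shMETTL14, 25 in shMETTL3, 23 in senescent shcontrol and 27 in control. In turn, the peak bin took 56.2% of the PETs of the 30.6 to 30.7 Mb bin in shMETTL14, 59.2% in shMETTL3, 63.9% in senescent shcontrol and 44.6% in control. On the class III side the leading partners of the bins from 31.6 to 31.8 Mb were each other, themselves and the next bin. Between 31.6 to 31.7 and 31.7 to 31.8 Mb lay 21 PETs in shMETTL14, 9 in shMETTL3, 9 in senescent shcontrol and 47 in control. Within the bin from 31.7 to 31.8 Mb lay 3 PETs in senescent shcontrol and 50 in control, where the senescent set covers 10.2 kb and the control set 27.8 kb.

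Few contacts left the region. PETs with both ends inside made up 96.9% in shMETTL14 (95.8 to 97.7), 97.6% in shMETTL3 (96.5 to 98.4), 96.1% in senescent shcontrol (94.5 to 97.3) and 95.8% in control (94.8 to 96.7). Those that left went mostly past the class II end, with 37 of 41 PETs in shMETTL14, 19 of 25 in shMETTL3, 32 of 33 in senescent shcontrol and 65 of 73 in control. The outside bin with most of them was 33.2 to 33.3 Mb, with 13 PETs in shMETTL14 (13.9 PPM), 9 in shMETTL3 (14.4 PPM), 16 in senescent shcontrol (29.0 PPM) and 40 in control (40.1 PPM). No single interaction across a border held more than 5 PETs. Contacts that passed over the anchorless stretch from 32.4 to 32.8 Mb numbered 25 in shMETTL14 (26.7 PPM), 18 in shMETTL3 (28.8 PPM), 28 in senescent shcontrol (50.7 PPM) and 55 in control (55.1 PPM).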

How the data were processed

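Each library's deposited table lists pairs of anchors on 1 chromosome without a header. The seventh column holds the deposited count of PETs per pair, raw. The eighth, unnamed, was read as the authors' deposited false discovery rate, a q-value. Per the submitters' processing notes, HiC-Pro 3.1.0 and hg19 were used; how interactions were called was not stated in any source used here. Spans run from 5 kb to just under 2000 kb. PETs carry no molecular identifiers.

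PETs were summed per 100 kb bin (by anchor midpoint), per anchor merged at 1 bp overlap and per anchor pair, and scaled to 1000000 PETs of the library (PPM). Shares have exact Clopper-Pearson 95% intervals, ratios exact conditional binomial ones. Calls ran over the whole genome by 1 rule. For 100 kb bins only, the rule was tested on simulated counts with known changes and counting error. Those counts hold no spread between libraries and no difference between anchor sets. Tools were Python 3.11.15, pandas 2.3.3, numpy 2.4.6, scipy 1.17.1 and matplotlib 3.10.9. Named were the 5 bins and interactions with most PETs per library, up to 5 called bins per direction, the 5 highest and 5 lowest anchors with at least 100 PETs, and main partners. The members, lists and rules were chosen with earlier results of these data known. No gene was assigned to an anchor, and no sequence was read.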

Additional observations from a re-analysis of the deposited data

How the results depend on the processing

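Of 95 values under the alternatives, 60 stayed within the counting interval of the reported ratio or within 1.5 times the reported count, 32 moved further and 3 reversed; the cause was not tested except where the construction shows it. Among the 60, 3 changed direction: the cluster ratio of shMETTL14 over senescent shcontrol was 1.01 at equal depth, the class III ratio of shMETTL14 over shMETTL3 was 1.00 at spans of at least 20 kb, and at those spans shMETTL3 over senescent shcontrol had 1 bin called higher and 2 lower. Of 53 ratios, 12 had an interval that moved onto or off 1, most of them of the whole region; for shMETTL14 over senescent shcontrol it included 1 at equal depth, with both anchors in the region and at spans of at least 20 kb. Senescent shcontrol over control: with only interactions of at least 4 PETs and a false discovery rate of at most 0.01, the region ratio was 1.35, the cluster pairs 2.08, the class III side 0.589 (0.260 to 1.22) and the bins called 2; per covered kb, the region was 1.40, the class III side 1.12 and the bins called 3. Centred on the genome median, the region ratio was 0.973. The values per covered kb were not centred, and on that scale the genome-wide median log2 ratio of bins was 0.40. The cluster ratio was 1.46 at spans of at least 20 kb, 1.49 with PETs inside merged anchors and 1.26 with all PETs inside the peak bin; the last, and the bins with an anchor in both sets (7 called), were chosen after seeing the data. With at least 100 PETs a bin, fewer bins enter and 3 were called. For shMETTL3 over senescent shcontrol, bins called were 0 at the stricter threshold, 0 at 100 PETs and 1 at 2-fold. For shMETTL14 over senescent shcontrol, the stricter threshold gave a region ratio of 0.832 and 0 bins, spans of at least 20 kb 2 bins (1 higher, 1 lower), and 100 PETs or 2-fold 0 bins. For shMETTL14 over shMETTL3, the stricter threshold gave a region ratio of 0.730, and 0 bins were called at that threshold, at equal depth, at spans of at least 20 kb, after centring, at 100 PETs and at 2-fold. The stricter threshold left median spans of 19.8 kb in each senescent library and 23.2 kb in control; spans of at least 20 kb gave 69.3 kb in shMETTL14, 59.4 kb in shMETTL3, 65.4 kb in senescent shcontrol and 76.7 kb in control. On the class III side the stricter threshold left no PETs in at least 1 senescent library of each knockdown comparison, so it gave no value there. The senescent libraries share their anchors, so division by covered length alters nothing among them. No paired analysis was possible because each group is a single library. Depth limits the single bins of the class III and class II sides, most of which hold under 60 PETs in a senescent library.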
